A study of Mus musculus with 27 samples.

Results

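Cytochromes P450 of families 1 to 4 were followed through 27 RNA libraries of mouse intestine. The family was taken as every gene of the count table whose symbol is Cyp, a family number from 1 to 4, a subfamily letter and a gene number. Of 23420 genes in the table, 73 carried such a symbol, and 55 of these had at least 10 counts over all libraries. Another 11 had 1 to 9 counts and 7 had none, and no Cyp2a gene reached 10. At that limit, Cyp2j13 was kept with 10 counts, while Cyp2c54 and Cyp2d40 had 9. The 55 genes belong to 17 subfamilies, the largest being Cyp2c with 13 genes and Cyp2d and Cyp4f with 8 each.

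All mice were of the inbred strain C57BL/6 and drank either water (control) or 15% ethanol for 8 weeks. The colon and a stretch of the small intestine, the jejunum, were each sequenced as whole tissue and as organoids, cultures of gut epithelium that grow as small closed bodies in a gel. Colon organoids had 2 control and 2 ethanol libraries, jejunum organoids 4 and 4, colon tissue 4 and 4, and jejunum tissue 3 and 4. Ethanol was given to the animals, and the labels name no ethanol in culture. Age, sex and pooling are not given in the sources used here. Libraries of a group differ in a donor number, which is all that says they came from separate animals, and p-values measure the spread between these libraries. The same numbers recur from group to group. The labels do not say whether a number marks the same animal across segments, tissue and organoids.

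Cytochromes P450 are heme enzymes of the endoplasmic reticulum that insert 1 oxygen atom into fatty acids, steroids, eicosanoids, drugs and plant compounds, with electrons from the reductase Por. Families 1 to 3 are known mainly for the breakdown of foreign compounds and family 4 for the hydroxylation of fatty acids and leukotrienes. In the gut they sit mostly in absorptive epithelial cells, and several are induced through ligand-activated receptors: family 1 through the aryl hydrocarbon receptor Ahr, Cyp2b through Nr1i3 (CAR), Cyp3a through Nr1i2 (PXR) and Cyp4a through Ppara.

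Levels are CPM, each library's counts scaled to 1 common total after Rn45s is left out, since Rn45s, the ribosomal RNA precursor, took 18.3 to 84.3% of a library. That left 684906 to 7606668 counts. The method reads 1 tag at the 3' end of a transcript, so counts need no division by length and levels of different genes can be set side by side. Differences are log2 fold changes ± standard error from edgeR's quasi-likelihood test, called at a Benjamini-Hochberg adjusted p under 0.05 over all genes tested. The 2 control colon organoid libraries stood apart, with 9951 and 11780 genes detected against 13542 and 15383 with ethanol. So did 3 colon tissue libraries (control 1, ethanol 1 and ethanol 2), with 182 to 801 CPM of Hoxb13, a homeobox gene of the distal colon, against at most 0.274 CPM in the other 5. Control colon organoid library 2 also held Hoxb13, at 37.9 CPM. In bulk RNA, fewer cells of a type and less RNA per cell cannot be told apart.

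Colon tissue was dominated by a single cytochrome. In controls Cyp2c55, which hydroxylates arachidonic acid, made up 70.7% of the summed level of the 55 genes (45.1 to 75.6% by library), and subfamily Cyp2c as a whole 79.7%. Cyp2c55 stood at 471, 4116, 5326 and 5446 CPM in the 4 control libraries and at 791, 235, 3783 and 2392 CPM in the 4 ethanol libraries. The 3 low values are those of the 3 libraries high in Hoxb13. In jejunum tissue the level was spread over more genes. Cyp4f14, which hydroxylates leukotriene B4 and vitamin E, led with 27% of the sum in controls, ahead of Cyp3a13 (14.3%), a drug-metabolising enzyme of the gut, and Cyp2b10 (11.8%), the classical target of CAR. Subfamily Cyp4f came to 35.0% and Cyp3a to 21.8%.

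**Figure D1:**
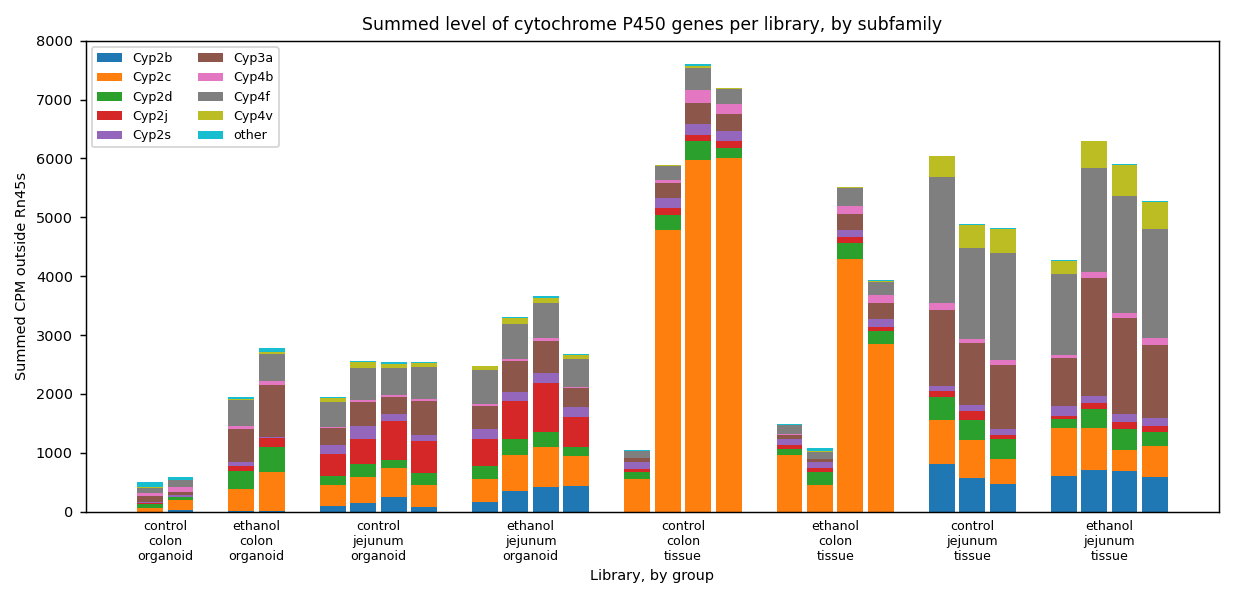
Summed level of the 55 genes in each of 27 libraries (stacked bars, CPM outside Rn45s), coloured by subfamily and ordered by group. Cyp2c fills most of the bar in every colon tissue library but ethanol library 2 (41.6%), and the 2 control colon organoid libraries have the lowest sums, 504 and 596 CPM.

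In control colon organoids Cyp2c55 had the highest mean, as in colon tissue, but with 16.3% of the sum. It led only in library 2, at 145 CPM. In library 1 it was at 34.4 CPM, below Cyp3a13 at 95.3 CPM, among others. In ethanol colon organoids Cyp3a13 led. Cyp2j6 had the highest mean in jejunum organoids, with 490.5 CPM in controls and 599.9 CPM with ethanol, about 20.5 and 19.8% of the sum. In control jejunum organoid library 2 Cyp4f14 was slightly above it (1682 against 1665 counts). Control colon organoids held the lowest sums of all groups, 504 and 596 CPM, and 9 genes reached 20 CPM in them. The sums were 1939 and 2773 CPM in ethanol colon organoids, 1951 to 2554 CPM in control jejunum organoids and 2483 to 3662 CPM in ethanol jejunum organoids. Tissue libraries ran from 1045 to 7599 CPM in control colon and from 4822 to 6048 CPM in control jejunum. Over the 8 groups, 25 of the 55 genes reached a mean of 20 CPM in at least 1 group, with Cyp3a44 just inside at 20 CPM and Cyp1a2 just outside at 17.8 CPM, and 16 stayed under 5 CPM in every group. Of the 55, 8 were detected in all 27 libraries: Cyp2c55, Cyp2c65, Cyp2s1, Cyp3a13, Cyp4b1, Cyp4f13, Cyp4f14 and Cyp4f16.

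**Figure D2:**
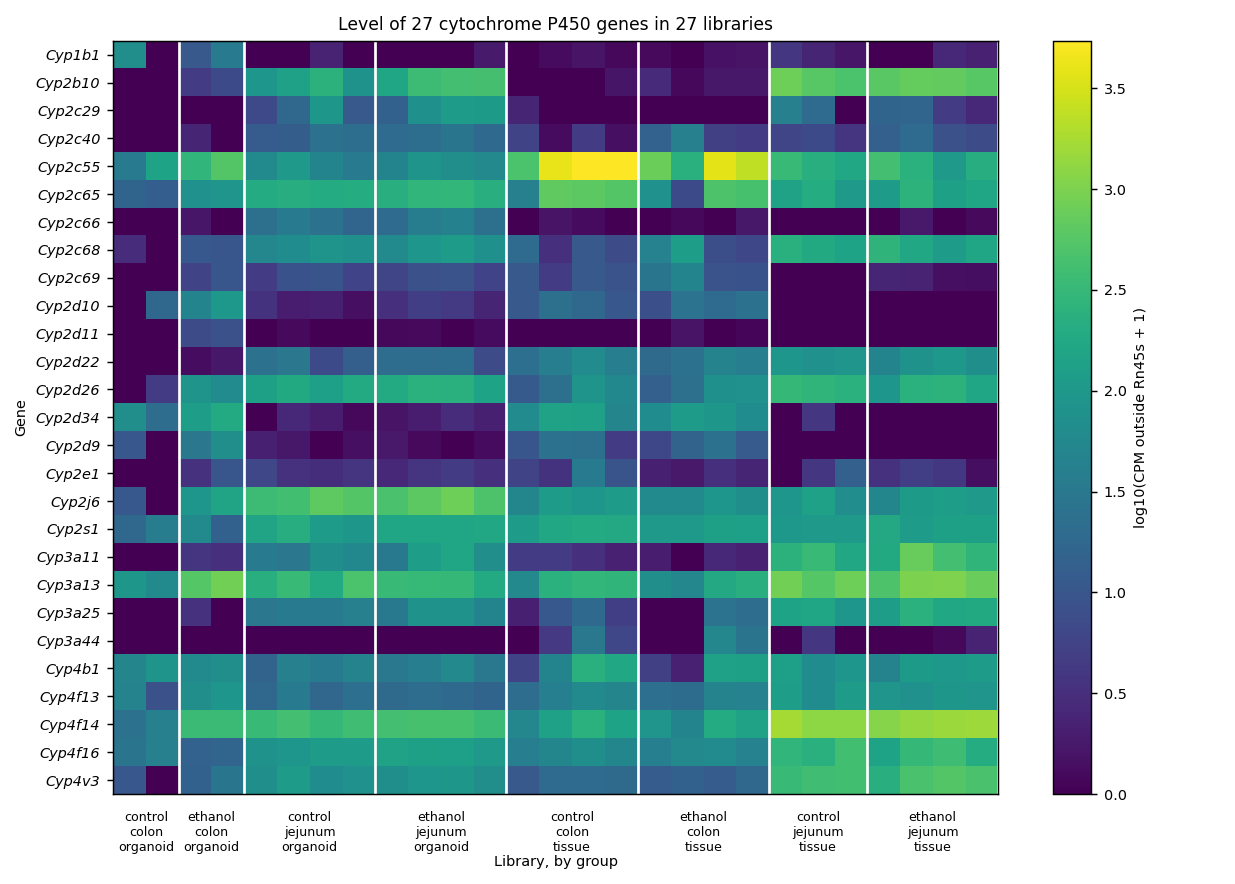
Level of 27 genes (rows) in 27 libraries (columns, by group) as log10(CPM outside Rn45s + 1), a log scale. The genes are the 25 with a mean of at least 20 CPM in a group, and Cyp2d11 and Cyp2e1. Cyp2b10 is bright in jejunum and dark in colon, and Cyp2c55 brightest in 5 of 8 colon tissue libraries.

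Of the 13 Cyp2c genes, 12 were placed in GENCODE vM21 (not Cyp2c44), all on chromosome 19, and their 3' ends are partly alike. Of the 50-base windows in the last 500 bases of the transcripts, 74.3% of those of Cyp2c40, 51.2% of those of Cyp2c68 and 38.4% of those of Cyp2c69 recur in another gene, so reads may be split between these 3 and Cyp2c67. For Cyp2c55 the share was 0% and for Cyp2c65 3.33%. Among Cyp2d genes it was 19.5 to 25.7%, except Cyp2d22 with 0%. In the 3 colon tissue libraries high in Hoxb13, Cyp2c55 and Cyp2c65 were lower than in the other 5, and Cyp2c68 and Cyp2c40 higher. The upstream regions of these 4 Cyp2c genes are therefore shown. Each runs from 250 bases before to 50 after the start of the gene in RefSeq (GRCm38.p6), 5′ to 3′ on the strand of the gene. They lie at chr19:39006769-39007068 (plus strand), chr19:39060756-39061055 (plus), chr19:39741052-39741351 (minus) and chr19:39812765-39813064 (minus). Capitals mark CAAAGTCCA, an element known to bind the hepatocyte nuclear factor HNF4, on either strand.
Cyp2c55: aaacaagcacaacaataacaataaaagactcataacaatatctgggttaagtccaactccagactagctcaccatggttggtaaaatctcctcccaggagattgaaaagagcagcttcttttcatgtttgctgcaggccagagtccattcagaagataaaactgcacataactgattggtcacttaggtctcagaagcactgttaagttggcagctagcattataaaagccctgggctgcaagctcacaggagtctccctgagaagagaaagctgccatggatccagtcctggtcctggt
Cyp2c65: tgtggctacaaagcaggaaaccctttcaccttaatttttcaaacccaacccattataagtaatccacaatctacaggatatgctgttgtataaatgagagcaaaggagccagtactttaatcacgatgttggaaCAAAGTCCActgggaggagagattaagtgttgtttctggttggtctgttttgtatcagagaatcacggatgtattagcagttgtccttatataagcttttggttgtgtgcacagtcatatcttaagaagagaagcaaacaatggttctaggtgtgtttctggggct
Cyp2c68: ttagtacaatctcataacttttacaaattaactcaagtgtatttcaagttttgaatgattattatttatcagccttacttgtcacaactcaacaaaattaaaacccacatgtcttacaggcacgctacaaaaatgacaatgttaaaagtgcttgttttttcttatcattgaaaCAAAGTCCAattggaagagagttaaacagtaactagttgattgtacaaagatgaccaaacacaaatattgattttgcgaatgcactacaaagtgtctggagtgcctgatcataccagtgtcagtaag
Cyp2c40: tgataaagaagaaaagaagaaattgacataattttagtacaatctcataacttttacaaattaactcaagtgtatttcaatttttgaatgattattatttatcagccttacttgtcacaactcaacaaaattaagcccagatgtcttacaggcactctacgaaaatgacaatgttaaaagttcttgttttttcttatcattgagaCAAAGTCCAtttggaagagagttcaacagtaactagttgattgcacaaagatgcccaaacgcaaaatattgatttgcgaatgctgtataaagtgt

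CAAAGTCCA began 116 bases before the start in Cyp2c65, 77 before it in Cyp2c68 and 45 before it in Cyp2c40, and was not found in the window of Cyp2c55. RefSeq promoters were matched for 45 of the 55 genes. The 9 letters were in 7 of them (Cyp2c40, Cyp2c65, Cyp2c67, Cyp2c68, Cyp2c69, Cyp2c70 and Cyp3a11) and in 0.475% of all 32851 promoter windows of this length. The half-site of nuclear receptors, AGGTCA, was in 11 of the 45 and in 16.3% of all, and in none of the 4 windows above. A match describes letters, not binding. Aligned end to end, windows of Cyp2c68 and Cyp2c69 were 91.0% identical, those of Cyp2c68 and Cyp2c40 73.3% and those of Cyp2c55 and Cyp2c65 53.3%. The opening of the Cyp2c68 window recurs further into that of Cyp2c40, so their value includes gaps at the ends. Copies of 1 ancestral region therefore count more than once. These genes and motifs were chosen after the levels had been seen.

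Colon and jejunum tissue of control mice differed in most of the genes tested. Of 30 cytochromes tested, 6 were called higher in colon and 14 higher in jejunum, 20 in all. Over all 13434 genes tested 42.1% were called, 25% higher in colon and 17.1% higher in jejunum. Cyp2b10 was at 806, 574 and 475 CPM in the 3 jejunum libraries, and in colon at 0.609 CPM in 1 library and 0 in the other 3. The 2 groups were far apart (log2 difference -12.07 ± 0.60, edgeR adjusted p = 3.45e-11). Cyp4v3, a fatty acid hydroxylase related to the human gene of a crystalline retinal dystrophy, was at 345 to 405 CPM in jejunum and 10.1 to 19.5 CPM in colon (-4.90 ± 0.36, edgeR adjusted p = 7.66e-09). Cyp3a11, a drug-metabolising enzyme, was at 252, 330.0 and 170.2 CPM in jejunum and at 1.22 to 3.62 CPM in colon (-6.97 ± 0.58). Cyp4f14 was at 1243 to 1725 CPM against 51.8 to 242 CPM (-3.69 ± 0.50), and Cyp4f16, of the same subfamily, at 238 to 405 CPM against 39.2 to 71.3 CPM (-2.97 ± 0.34). Cyp2c68 (-4.76), Cyp3a25 (-4.43), Cyp2d26 (-3.07), Cyp3a13 (-2.19), Cyp4f13 (-1.66) and Cyp2d22 (-1.49) were also called higher in jejunum with ranges that did not overlap. Cyp2c29 (-5.88) was called with overlapping ranges, at 41.4, 19.0 and 0 CPM against 0 to 1.42 CPM.

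The genes higher in colon tissue were Cyp2c55, Cyp2c69 and 4 of subfamily Cyp2d. Cyp2c55 was at 324, 218 and 173 CPM in jejunum, below each of the 4 colon libraries (3.64 ± 1.0, edgeR adjusted p = 0.0107). Cyp2d34 was at 63.2, 143, 136 and 49.5 CPM in colon and at 0, 2.92 and 0 CPM in jejunum (6.94 ± 0.84, edgeR adjusted p = 1.97e-05). Cyp2d10 was at 9.34 to 22.6 CPM, Cyp2d9 at 3.65 to 24.6 CPM and Cyp2c69 at 3.68 to 10.1 CPM in colon. None of these 3 had a count in control jejunum, which puts them at least 17.5-fold, 17.9-fold and 9.53-fold higher in colon, taking 3 counts over the whole group as the floor. Cyp2d12, also without a count there, was at least 4.91-fold higher. These genes share part of their 3' ends with their neighbours, as given above. Cyp2s1, an extrahepatic cytochrome, (162 against 102 CPM), Cyp2j6 (90.7 against 98.5 CPM) and Cyp4b1 (112 against 94.9 CPM) were not called between the control tissues. The ranges of Cyp2s1 did not overlap there (113 to 189.8 against 98.7 to 105 CPM). In tissue of ethanol mice Cyp2s1 (-0.80 ± 0.22, edgeR adjusted p = 0.00642) and Cyp2j6 (-0.99 ± 0.32, edgeR adjusted p = 0.0156) were called higher in jejunum, and Cyp4b1 was not called.

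In ethanol mice 22 of the 30 were called between colon and jejunum tissue, where 48.1% of all genes were called. Of the 20 called in controls, 19 were called there in the same direction, 95% of the first list and 86.4% of the second. No library is shared between these comparisons. The overlap expected from the sizes of such lists, and that over all genes, was not computed, here or for the lists compared below. Without the 3 libraries high in Hoxb13, an alternative added after seeing the data, 25 genes were called between the control tissues (38.0% of all genes), among them all 20. Cyp2c65 (1.56 ± 0.30, edgeR adjusted p = 3.82e-04) was then called higher in colon and Cyp2c40 (-2.18 ± 0.85, edgeR adjusted p = 0.0479) higher in jejunum, neither of which was called with all libraries.

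The 3 colon tissue libraries high in Hoxb13 had their own cytochrome profile. This split was made after the data were seen and crosses the treatments, with 1 control and 2 ethanol libraries, so it is described without a test. In 12 of the 30 cytochromes tested all 3 were below the other 5, and in 3 all 3 were above them, where 6.71% and 14.2% of all genes tested were. Cyp2c55 was at 235 to 791 CPM in the 3 and at 2392 to 5446 CPM in the 5. Cyp2c65, a close relative that also acts on arachidonic acid, was at 5.94 to 76.9 CPM against 438 to 664 CPM. Cyp4b1, which acts on fatty acids and some toxins, was at 1.19 to 4.88 CPM against 46.7 to 231 CPM. Cyp3a13 was at 52.9 to 69.2 CPM against 179.8 to 295 CPM and Cyp3a25 at 0 to 1.10 CPM against 3.86 to 25.4 CPM. Cyp3a44, whose 3' end is shared with Cyp3a41 copies for 35.3% of its windows, had no count in the 3 and 3.11 to 53.2 CPM in the 5. The others below were Cyp2d22, Cyp2d26, Cyp2j6, Cyp2s1, Cyp4f13 and Cyp4f14.

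In the opposite direction, Cyp2c68 was at 19.4 to 119 CPM in the 3 libraries and at 2.26 to 10.1 CPM in the 5. Cyp2c40 was at 4.88 to 41.6 CPM against 0.283 to 4.14 CPM, and Cyp2f2, known from lung airway cells, at 2.50 to 47.1 CPM against 0 to 1.08 CPM, the high end resting on ethanol library 2. Cyp2c68 and Cyp2c40 are the 2 genes whose upstream windows were printed beside those of Cyp2c55 and Cyp2c65. The 3 libraries were thus low in Cyp2c55 and Cyp2c65 and high in Cyp2c68 and Cyp2c40, and reads of Cyp2c68 and Cyp2c40 may be exchanged between them. Cyp2d34, at 63.2 to 109.9 CPM against 49.5 to 143 CPM, overlapped. Epcam, a marker of all epithelium, overlapped as well (1102 to 1579 against 1329 to 1884 CPM), while Slc26a3, the chloride exchanger of surface colonocytes, was at 671 to 852 CPM in the 3 and at 189 to 582 CPM in the 5, and Car4, a colonocyte carbonic anhydrase, at 238 to 289 CPM against 374 to 604 CPM. Of the other colonocyte markers, Car1 was at 486 to 1870.5 CPM against 15911 to 27651 CPM, Aqp4 at 420.4 to 966 CPM against 24.8 to 97.5 CPM, and Aqp8 overlapped. The smooth muscle gene Acta2 was at 971 to 3907 CPM against 921 to 1794 CPM.

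**Figure D3:**
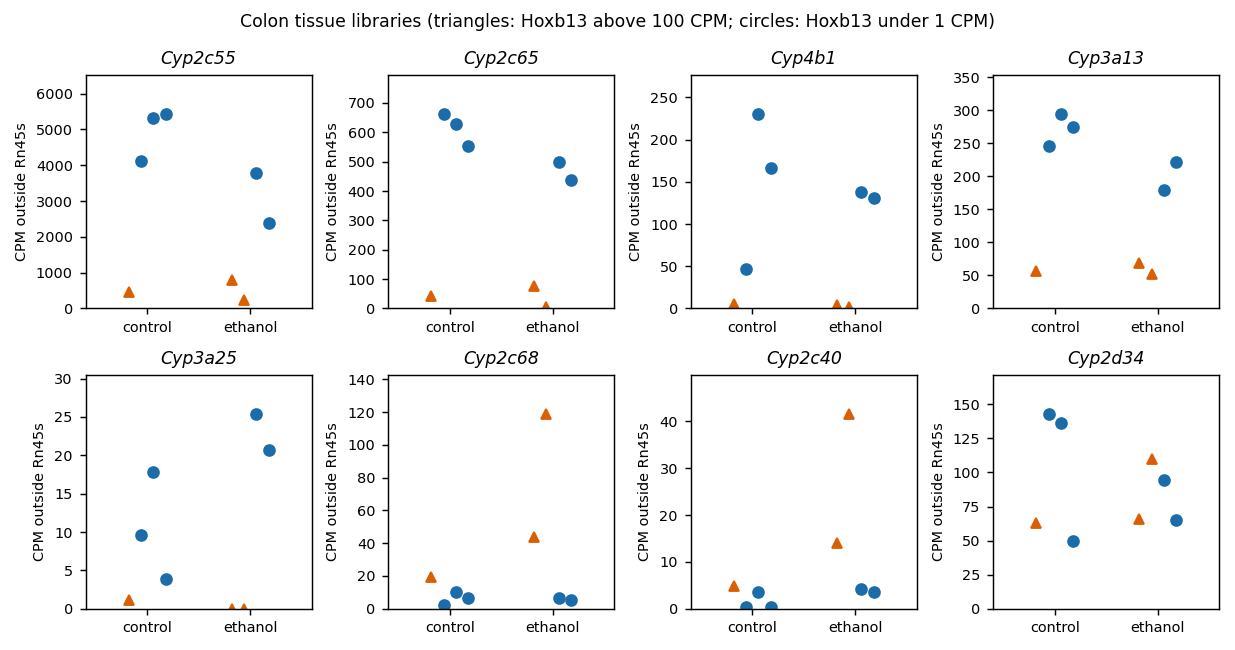
Level of 8 genes (CPM outside Rn45s, linear axes) in the 4 control and 4 ethanol colon tissue libraries. Triangles are the 3 libraries high in Hoxb13 and circles the other 5. Cyp2c55, Cyp2c65, Cyp4b1, Cyp3a13 and Cyp3a25 are lower in the triangles, Cyp2c68 and Cyp2c40 higher, and Cyp2d34 overlaps.

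Ethanol in colon organoids was the 1 ethanol comparison in which cytochromes were called. Of 33 tested, 11 were called, all higher in cultures from ethanol mice, where 17.3% of 12922 genes were called (12.1% higher and 5.19% lower). The median log2 fold change of the 33 was 3.39, against 0.11 over all genes. With 9 genes that lacked a count in controls set to their lower bound, and 7 left out as at or under the floor of 3 counts over the group, it was 2.33. Cyp4f14 was at 24.6 and 41.6 CPM in the 2 control libraries and at 357 and 348 CPM in the 2 ethanol libraries (3.69 ± 0.26, edgeR adjusted p = 5.44e-05). Cyp2c65 went from 15.2 and 12.2 CPM to 76.3 and 87.7 CPM (2.74 ± 0.25, edgeR adjusted p = 1.23e-04). Cyp3a13 was at 95.3 and 58.7 CPM in controls and at 557 and 882 CPM with ethanol (3.39 ± 0.50, edgeR adjusted p = 0.00134). With ethanol it had the highest mean of the 55 genes, 30.5% of their sum. In each of these 3 both ethanol libraries were above both controls, as in 21.7% of all genes.

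Cyp2c55 was at 34.4 and 145 CPM in controls and at 291 and 549 CPM with ethanol (2.54 ± 0.61, edgeR adjusted p = 0.0153). Cyp2d26 was at 0 and 3.67 CPM against 83.7 and 63.2 CPM (6.20 ± 0.71), Cyp2j6 at 9.82 and 0 CPM against 89.7 and 151 CPM (4.39 ± 0.65), and Cyp2d10 at 0 and 17.1 CPM against 47.1 and 98.1 CPM (3.61 ± 1.15). Cyp2d26, Cyp2j6 and Cyp2d10 had no count in 1 of the 2 control libraries. Cyp2c68 (0.982 against 9.38 CPM, 2.95 ± 0.66) was low in both groups. Cyp2e1, the cytochrome of the liver that oxidises ethanol, was without a count in both controls and at 2.46 and 8.92 CPM with ethanol, at least 5.41-fold higher over the same floor. Cyp2c69 and Cyp2d11 also had no count in controls, at least 6.59-fold and 6.55-fold higher with ethanol. Of the windows at the 3' end of Cyp2e1, 18.8% recur in other genes.

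**Figure D4:**
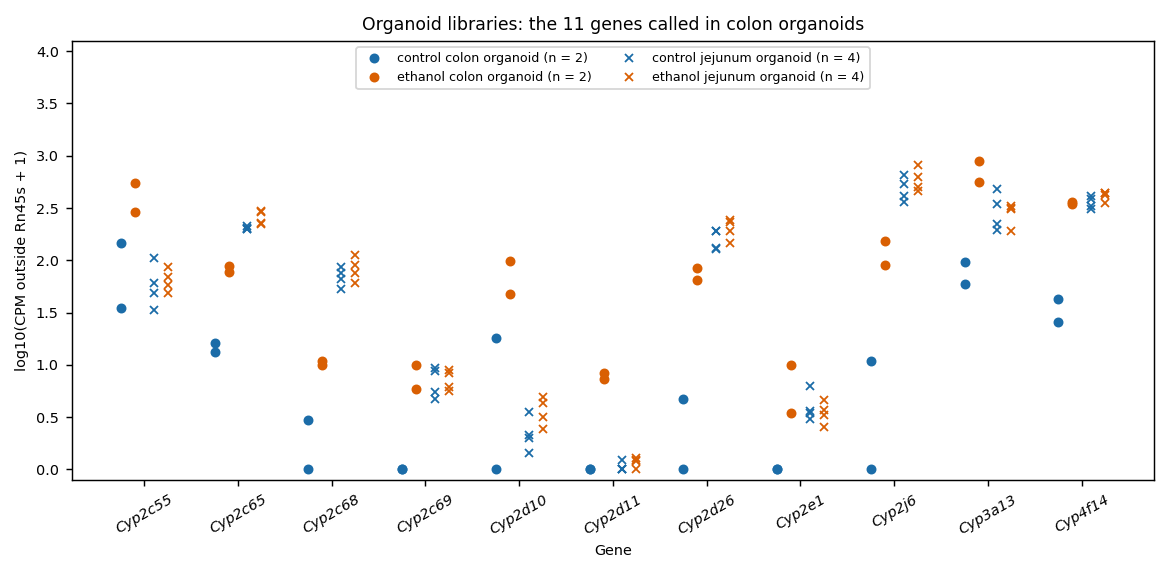
Level of the 11 genes called in colon organoids, as log10(CPM outside Rn45s + 1), a log scale, in each colon organoid library (dots) and each jejunum organoid library (crosses), control in blue and ethanol in orange. In all 11 both ethanol colon dots lie above both control dots, while control and ethanol crosses overlap in all but Cyp2c65.

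Of all 33, 26 had a positive fitted difference, 3 a negative one, and the others no count in any colon organoid library. None of the negative ones was called. Cyp4f16 was at 26.5 and 41.6 CPM in controls and 14.1 and 15.6 CPM with ethanol (-0.94 ± 0.31, edgeR adjusted p = 0.0526), and Cyp2d34 at 68.8 and 20.8 CPM against 122 and 192 CPM (1.93 ± 0.70, edgeR adjusted p = 0.0792). Cyp4b1 and Cyp2s1 overlapped between the groups. Of the 55 genes, 7 were highest in control colon organoids of all 8 groups, and these rested mostly on 1 library. Control library 2 held 34.2 CPM of Cyp1a2, 24.4 of Cyp2b9, 25.7 of Cyp4a10 and 23.2 of Cyp4f15 from 19 to 28 counts each, against 1.47, 0, 0 and 0 CPM in library 1. Control library 1 held 68.8 CPM of Cyp1b1 and 7.86 of Cyp2g1, both at 0 in library 2. Those under 20 CPM in every group are named here after their values were seen. Of 5 hepatocyte markers, Alb, Apoa2, Serpina1c and Apoh were at 0 in both control libraries, and Ttr was at 20.1 and 24.4 CPM.

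Library properties moved with the ethanol difference in colon organoids. The summed level of 4 epithelial markers was 2859 to 4364 CPM in controls and 5358 to 5968 CPM with ethanol. Epcam and Cdh1 were higher in both ethanol libraries, Vil1 overlapped, and Krt8 was lower (450.4 and 592 against 701 and 816 CPM in controls). That of 5 colonocyte markers was 924 to 1825 CPM against 6581 to 10453 CPM. Most of it was Car1 (912 and 1080.4 against 6381 and 10118 CPM). Car4 was higher with ethanol too, Aqp4 was lower (6.38 and 89.2 against 2.11 and 0 CPM), and Aqp8 and Slc26a3 overlapped. That of 3 macrophage markers 18.3 to 47.6 CPM against 72.9 to 361 CPM, nearly all of it Csf1r, with C1qa at 0 in controls and at most 0.352 CPM with ethanol. Their part in the cytochrome differences was not tested. With a spread estimated per group (limma-voom) 0 of the 33 were called, and 0 of 17 with the 4 colon organoid libraries fitted alone, as was no other gene in either fit (0%). DESeq2 called 18 of the 33, 16 higher and 2 lower, where it called 23.8% of all genes, 15.1% higher and 8.67% lower. Without control library 1 the number was 19 of 42, 13 higher and 6 lower, where 41.9% of all genes were called, 28.8% higher and 13.1% lower. Without ethanol library 2 it was 7 of 43, where 10.5% of all genes were called.

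In jejunum organoids no cytochrome was called, as was no gene at all (0% of 12922 genes by edgeR, 144 at an unadjusted p under 0.05, and 1 gene, 0.00774%, by DESeq2). Of the 33 tested, 3 had an unadjusted p under 0.05. Cyp2b10 was at 92.3, 138, 253 and 79.7 CPM in controls and at 164, 358, 415 and 430.2 CPM with ethanol (1.28 ± 0.37, edgeR adjusted p = 1). The lowest ethanol library lay within the control range. Cyp3a11 was at 29.4 to 71.6 CPM against 31.8 to 155 CPM (0.97 ± 0.44, edgeR adjusted p = 1). Cyp2c65 was at 198 to 213 CPM against 222 to 298 CPM (0.34 ± 0.15, edgeR adjusted p = 1), the only 1 of the 33 whose ranges did not overlap, where 1.39% of all genes had ethanol above control and 1.97% below.

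Cyp2c29, which forms epoxides of arachidonic acid and is a known target of CAR, was at 5.71, 16.7, 92.9 and 10.2 CPM in control jejunum organoids and at 13.4, 74.0, 113 and 107 CPM with ethanol (1.30 ± 0.84). Control library 3 had the highest control value of Cyp2b10, Cyp2c29, Cyp3a11 and Cyp1a1 (32.1 CPM against 1.96 to 4.79 CPM in the other 3). Ethanol library 1 had the lowest ethanol value of Cyp2b10, Cyp2c29, Cyp3a11, Cyp3a25 and Cyp1a1. Cyp1a1, the classical target of Ahr, stood at 5.31 to 20.4 CPM with ethanol. Cyp2e1 was at 2.06 to 5.34 CPM in controls and 1.57 to 3.63 CPM with ethanol.

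**Figure D5:**
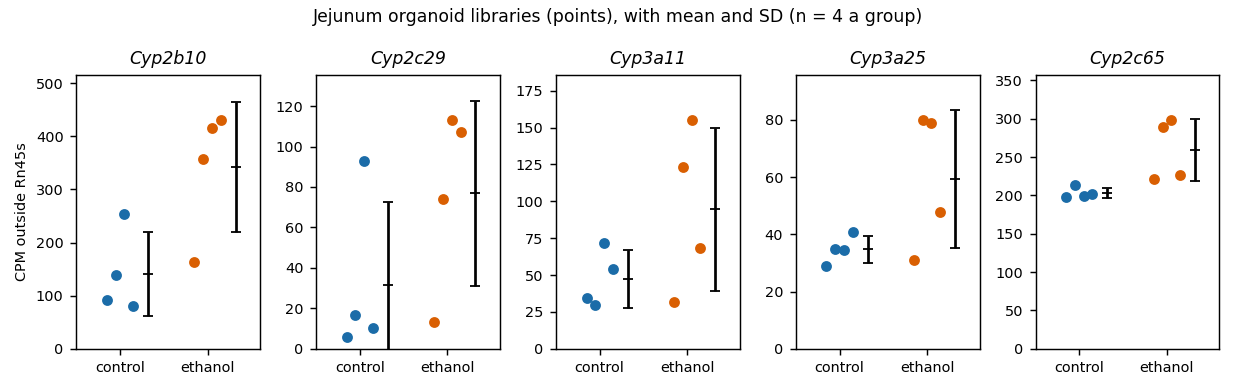
Level of 5 genes (CPM outside Rn45s, linear axes) in the 4 control and 4 ethanol jejunum organoid libraries (points), with the mean and SD beside them. Ranges overlap in all but Cyp2c65, and 1 control library of Cyp2c29 lies at 92.9 CPM, within the ethanol range.

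By the test of the difference, 9 of 33 genes responded unequally to ethanol in the organoids of the 2 segments, 8 more positively in colon and 1 more negatively. Over all genes it was 9.43%, with 7.20% more positive and 2.23% more negative in colon. The largest among genes with counts in every group was Cyp2d26 (5.86 ± 0.78, edgeR adjusted p = 0.00133), followed by Cyp2j6 (4.11 ± 0.72), Cyp3a13 (3.53 ± 0.58), Cyp4f14 (3.51 ± 0.30), Cyp2c68 (2.69 ± 0.73) and Cyp2c65 (2.40 ± 0.29). Cyp2c69 and Cyp2e1 passed too, on control colon organoids without a count. Cyp4f16 (-1.24 ± 0.36, edgeR adjusted p = 0.0484) was the negative one. Its call was lost without the filter on low counts, with the donor number as a block across treatments, and with any 1 library left out except control colon organoid library 1. With a spread per group (limma-voom) 0 of the 33 and 0% of all genes were called.

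In tissue no cytochrome was called for ethanol by edgeR or DESeq2. In colon tissue 0 of 30 were called (0.00744% of 13434 genes by edgeR, that is 1 gene, and 0.0149% by DESeq2), with 8 of the 30 and 324 of all genes at an unadjusted p under 0.05. Cyp2e1 was at 4.88, 2.54, 32.6 and 8.32 CPM in control colon and at 1.14, 0.792, 2.34 and 1.47 CPM with ethanol (-3.06 ± 0.90, edgeR adjusted p = 1). All 4 ethanol libraries were below all 4 controls, as in 0.893% of all genes. Cyp2e1 is also a gene of fat cells, and the summed level of 5 adipocyte markers was 43.5 to 668 CPM in controls and 17.4 to 70.8 CPM with ethanol. The highest Cyp2e1 and the highest sum were both in control library 3. The part of fat in this difference was not tested. Cyp2c55 differed by -1.12 ± 0.80, and by -0.69 ± 0.42 without the 3 libraries high in Hoxb13. Cyp2c68 differed by 2.09 ± 0.81 with all libraries and by -0.04 ± 0.44 without those 3, and Cyp2c69 by 1.41 ± 0.54 and 0.11 ± 0.64.

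In jejunum tissue 0 of 30 were called (0% of 13434 genes by edgeR, 1534 at an unadjusted p under 0.05, and 31 genes, 0.231%, by DESeq2). Cyp2b10 was at 475 to 806 CPM in controls and 581 to 700.4 CPM with ethanol (0.15 ± 0.36). Cyp3a11 was at 252, 330.0 and 170.2 CPM against 187, 744, 409 and 274 CPM (0.81 ± 0.46, edgeR adjusted p = 0.534), and Cyp4f14 at 1243 to 1725 CPM against 1138 to 1556 CPM (0.07 ± 0.47). Cyp2s1 was at 98.7, 105 and 101 CPM against 176, 116, 130.2 and 132 CPM (0.53 ± 0.25, edgeR adjusted p = 0.427). It was among 3 of the 30 with all ethanol libraries above all controls, where 5.69% of all genes were, and Cyp4f40 was the only 1 below, where 1.73% were. The other 2 above were Cyp2c40 and Cyp2c69, and Cyp4f40 was named after its values were seen. Fabp6, the bile acid binding protein of the ileum, ran from 0.797 to 2124 CPM across these 7 libraries, and its part was not tested. The difference between the ethanol effects in colon and jejunum tissue was called in 0 of 30 (0% of 13434 genes, 894 at an unadjusted p under 0.05).

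The segments also differed in control organoids, which share the 2 control colon libraries with the ethanol comparison. Of 33 genes tested, 4 were called higher in colon and 21 higher in jejunum, where 49.8% of 12922 genes were called, 23.8% and 26.1% by direction. With the donor number as a block 12 of the 25 remained, all higher in jejunum, where 8.23% of all genes were called and 5.60% were higher in jejunum. With a spread per group (limma-voom), where 7.99% of all genes were called, 3 remained: Cyp2c65, Cyp4f14 and Cyp2d34, named after their values were seen. Cyp2c65 was at 15.2 and 12.2 CPM in colon and 198 to 213 CPM in jejunum (-4.11 ± 0.24, edgeR adjusted p = 4.44e-07), Cyp4f14 at 24.6 and 41.6 CPM against 312 to 412 CPM (-3.79 ± 0.25), and Cyp2d34 at 68.8 and 20.8 CPM against 0 to 1.71 CPM (5.82 ± 0.73). Cyp2b10 had no count in control colon organoids and 79.7 to 253 CPM in jejunum, at least 134-fold higher in jejunum.

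Tissue and organoids can be compared in which genes separate the segments. They share no library, but libraries of the same donor number may come from the same mouse, so the lists may not be independent. Of the 20 genes called in control tissue, 13 were called in control organoids in the same direction, 65.0% of the tissue list and 52.0% of the organoid list. They include Cyp2b10, Cyp3a11, Cyp3a25, Cyp4v3, Cyp4f14 and Cyp4f16, higher in jejunum, and Cyp2d34 and Cyp2d9, higher in colon. Cyp2c69 was called in opposite directions. Most cytochromes tested in control organoids were called, 25 of 33, with 21 higher in jejunum, so shared calls would be common from those numbers alone. Not every call could recur, since the filter on low counts differed between the fits. Cyp2d12, Cyp3a57 and Cyp4f40 of the tissue list were not tested in organoids. Cyp1a1, Cyp1b1, Cyp2c44, Cyp2c66 and Cyp2u1 of the organoid list were not tested in tissue. Cyp2c55, which separated the tissues, was at 89.9 CPM in control colon organoids and 60.9 CPM in control jejunum organoids (0.19 ± 0.51, edgeR adjusted p = 0.782). In ethanol organoids 27 of the 33 were called between the segments, where 45.9% of all genes were. Of the 25 called in control organoids, 19 were among them in the same direction (76.0% of the first list and 70.4% of the second) and Cyp3a13 in the opposite one. Cyp2c55 was called higher in colon there (2.64 ± 0.47, edgeR adjusted p = 9.23e-04), and Cyp3a13, higher in jejunum in control organoids (-2.25 ± 0.45), was called higher in colon (1.27 ± 0.38, edgeR adjusted p = 0.0163).

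Between organoids and tissue of control jejunum, 19 of 42 genes were called, 5 higher in organoids and 14 lower, where 51.3% of 14785 genes were called, 21.6% higher and 29.7% lower. Cyp2j6 was at 362 to 652 CPM in organoids and 66.9 to 137 CPM in tissue (1.95 ± 0.41, edgeR adjusted p = 2.73e-04). Cyp2c66 was at 15.6 to 32.3 CPM and without a count in tissue, at least 28.0-fold higher in organoids, and Cyp1a1 (4.71 ± 1.5), Cyp2j9 (3.14 ± 0.84) and Cyp2c69 were higher as well. Cyp4v3 fell by 2.63 on the log2 scale in organoids (64.7 to 109.7 against 345 to 405 CPM), Cyp4f13 by 2.63, Cyp2b10 by 2.56, Cyp3a11 by 2.78, Cyp4f14 by 2.38 and Cyp2c55 by 2.38. In ethanol mice 22 of the 42 were called, where 53.9% of all genes were, and 17 of the 19 were among them in the same direction, 89.5% of the first list and 77.3% of the second.

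In control colon 18 of 42 genes were called between organoids and tissue, 2 higher in organoids and 16 lower, where 46.2% of 14785 genes were called, 14.5% higher and 31.7% lower. Cyp2c55 was 5.93 ± 1.16 log2 units below tissue (34.4 and 145 against 471 to 5446 CPM, edgeR adjusted p = 3.51e-04) and Cyp2s1 was 3.07 ± 0.45 below (16.7 and 36.7 against 113 to 189.8 CPM). In ethanol mice 13 of the 42 were called, where 33.4% of all genes were. Of the 18, 5 were called in the same direction in ethanol mice (27.8% of the first list and 38.5% of the second) and 2 in the opposite direction, Cyp3a13 and Cyp4f14. With a spread per group (limma-voom) 0 of the 42 and 3.22% of all genes were called in control colon.

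The genes that cytochromes work with are taken from 2 lists: 6 measured electron donors, and receptors and regulators. Nr1i3 (CAR), the receptor of Cyp2b10, was at 17.9 to 28.3 CPM in control jejunum tissue and 0 to 1.57 CPM in control colon tissue (-5.65 ± 0.72, edgeR adjusted p = 8.78e-06). In control organoids it was at 20.6 to 24.2 CPM in jejunum and without a count in colon. Por, the reductase, was at 315 to 779 CPM in control jejunum tissue and 123 to 346 CPM in control colon tissue (-1.70 ± 0.42). Between the control tissues 0 donors were higher in colon and 3 of 6 higher in jejunum (Cyb5r3, Por and Cyb5b), where 25% and 17.1% of all genes were. Among the regulators Nr1h4 was called higher in colon, and Hnf4g, Cebpb, Nr1i3 and Nr1i2 higher in jejunum.

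With ethanol in colon organoids no regulator was called lower, and several were called higher. Cebpa, a factor of liver and gut differentiation, was at 1.96 and 0 CPM in controls and 51.0 and 73.6 CPM with ethanol (5.65 ± 0.53, edgeR adjusted p = 1.31e-04). Vdr, the vitamin D receptor, was at 26.0 and 19.6 CPM against 139 and 235 CPM (3.19 ± 0.31), and Hnf4a at 49.1 and 97.8 CPM against 117 and 164 CPM (1.20 ± 0.26). Of 6 donors Pgrmc1 was called higher, where 12.1% of all genes were, and Por was not called (0.23 ± 0.18, edgeR adjusted p = 0.437). In jejunum organoids and in both tissues no gene of these lists was called for ethanol. The library properties given for the cytochromes move with these differences too, and their part was not tested.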

How the data were processed

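RNA of 27 libraries was read with a 3' tag method (QuantSeq), per the labels' protocols. The authors deposited raw counts per gene. The submitters' processing notes name Trimmomatic 0.32, BWA, HTSeq, limma, edgeR and the build mm10, with no roles. Groups and donor numbers came from the labels. Total counts ran from 1337068 to 16312562 per library, and counts outside Rn45s from 684906 to 7606668, so levels near 1 CPM rest on few counts. CPM were computed from the deposited counts without Rn45s, for description only.

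Tests used edgeR 4.0.16 (R 4.3.3): genes were filtered by group (filterByExpr), scaled by TMM and tested by robust quasi-likelihood, two-sided, with Benjamini-Hochberg adjustment over all genes kept, called at an adjusted p under 0.05. The order of filter and scaling was settled after first calls had been seen. The 12 organoid libraries were fitted together, the 15 tissue libraries together, and all 27 for organoids against tissue. Scripts were tested on simulated data. Alternatives were DESeq2 1.42.0, RLE factors, Rn45s left out, no filter on low counts and limma-voom (3.58.1) with a spread per group. Others were the compared groups alone, each library left out, a block on the donor number (the replicate block) and ethanol mice in place of controls. In ethanol comparisons the block joined control and ethanol libraries of the same number, which come from different animals. In the other comparisons it was set within each treatment.

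The genes and lists were chosen with earlier results of these data known. Genes described singly had a mean of at least 20 CPM in a group or were called for ethanol. Cyp1a1, Cyp2d12, Cyp2f2, Cyp2j9 and others under that limit were added after their values were seen. Of the partner lists, up to 4 called genes per comparison were named by smallest p, and all where a count was 5 or fewer. Promoters came from RefSeq and transcript ends and coordinates from GENCODE vM21, in which 53 of the 55 genes were found. Some results on partner genes, and heme synthesis as a list, are not reported here.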

Additional observations from a re-analysis of the deposited data

Results flagged for a closer look

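Among 98 groups of 4 libraries tested for a single distant value, 4 held one, where chance gives about 1 in 20 groups. Cyp2c29 was at 92.9 CPM in control jejunum organoid library 3 and at 5.71 to 16.7 CPM in the other 3. Cyp2d22 was at 6.40 CPM in ethanol jejunum organoid library 4, against 20.3 to 21.1 CPM. In the same library Cyp3a13 was at 190.0 CPM, against 308 to 331 CPM. Cyp4v3 was at 10.1 CPM in control colon tissue library 1, one of those high in Hoxb13, against 18.5 to 19.5 CPM.

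The ethanol effect in colon organoids minus that in jejunum organoids passed edgeR's test of the difference in 9 genes. On the log2 scale the difference was 2.40 for Cyp2c65, 2.69 for Cyp2c68, 5.86 for Cyp2d26, 4.11 for Cyp2j6, 3.53 for Cyp3a13, 3.51 for Cyp4f14 and -1.24 for Cyp4f16. For Cyp2c69 and Cyp2e1 the fitted values were 7.48 and 7.53, which rest on control colon organoids without a count and are no bound. All 9 use the same 2 control colon organoid libraries.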

How the results depend on the processing

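The ethanol count in colon organoids (11) was 18 with DESeq2, 0 with limma-voom and a spread per group, 0 with the 4 libraries fitted alone (17 genes tested) and 7 to 19 with 1 library left out. The difference of ethanol effects in organoids (9) was 0 with limma-voom and 6 to 12 with 1 library left out. The segment count in control organoids (25) was 3 with limma-voom, 12 with the replicate block and 23 to 25 with 1 library left out. The colon count of organoids against tissue (18) was 0 with limma-voom and 14 to 19 with 1 library left out. Leaving out 1 library gave 18 to 21 for the segments in tissue (20) and 15 to 18 for jejunum organoids against tissue (19). The counts for ethanol in jejunum organoids and in both tissues were 0 under every alternative run.

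The donor numbers were not taken as pairs in the main fits, and no comparison had every pair of same-numbered libraries correlated over 0.1. These correlations cannot decide whether such libraries share an animal. They reached 0.586 between control and ethanol colon tissue, which come from different animals. The replicate block gave 9 for ethanol in colon organoids, 6 for the difference, 18 for the segments in tissue, 15 and 17 for organoids against tissue in colon and jejunum.

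Single genes were checked for 8 of the 11 calls for ethanol in colon organoids and 14 of the 20 for the segments in tissue. All 9 were checked for the difference of ethanol effects in organoids. The call was kept in 67 of 88 alternative results for ethanol, 118 of 162 for the difference and 221 of 223 for the segments. For ethanol, limma-voom and the compared groups fitted alone each lost all 8, and for the difference limma-voom lost all 9. The alternative results are refits of largely the same libraries and are not separate evidence. Of these results 0 reversed. RLE factors and DESeq2 moved the median difference over the genes followed by -0.16 for ethanol in jejunum tissue, 0.16 for the tissue difference and 0.20 for colon organoids against tissue, and leaving out Rn45s by 0.13 and 0.18 for colon and jejunum organoids against tissue. Colon organoids hold 2 libraries a group, which limits every result there.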
